A study of Arabidopsis thaliana with 4 samples.

Results

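The NPF family (also called NRT1/PTR) was examined in proliferating endosperm of Arabidopsis thaliana, as the loci of that family with a probe named in the platform's gene table and a value on all 4 arrays. The rule lists 53 loci. Of these, 34 had a named probe, 1 probe each, and 26 had values on all 4 arrays, out of 19449 probes measured on all 4. Endosperm, the tissue that feeds the embryo, was cut by laser from silique sections at 4 DAP (days after pollination), and 3 such samples were hybridised on 2-colour arrays against 1 common reference RNA. By the design text the reference was the tissue left on a slide after the cutting, whereas the sample descriptions call it whole silique RNA. Endosperm was labelled with Cy3 in replicate 1 and with Cy5 in replicate 3, and that of replicate 2 was run on 2 arrays, 1 per dye. The labels state no ecotype, genotype or growth conditions, and no independent plants for the 3 samples, so each p-value reflects the spread of these samples, which may be technical.

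NPF proteins are membrane carriers that mostly move their cargo together with protons. The first members were found as nitrate or di- and tripeptide carriers. Others move glucosinolates, the sulphur-rich defence compounds of the cabbage family, or the hormones abscisic acid and gibberellin. Seeds import nitrogen and glucosinolates from the mother plant, and the path runs through the silique wall, the funiculus and the seed coat before it reaches the endosperm and embryo.

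Values are log2 ratios of endosperm over reference, so 1 unit is 2-fold. Endosperm is the likely numerator, since the median of the endosperm marker list was above 0 on each array (1.86, 1.99, 2.05 and 1.56). If the reference were the numerator, every sign below would turn. Of 8 measured endosperm markers 7 were higher in endosperm and 1 was not called, with means from 0.10 to 2.97 (34% of all genes were called higher). These markers set the direction, so their count is no separate check of it. The seed coat list had 3 measured genes, of which 1 was lower and 2 were not called (-0.73 to 0.15; 23.7% of all genes were called lower), and the 1 measured silique wall gene, ALC, was at -2.40. No embryo marker was measured (0 of 8). The arrays held values for 21829 to 23171 probes, and r between arrays lay between 0.87 and 0.92 across probes. Such ratios compare shares of RNA in bulk tissue, so fewer cells of a type and less RNA per cell cannot be told apart.

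Most NPF transcripts with a clear ratio were scarcer in endosperm than in the silique reference, and 1 stood far above it. NPF4.2 was 8.59-fold higher in endosperm, while NPF3.1, NPF4.3, NPF5.14, AT2G40460 and AT3G45680 were 8.15-fold to 11.7-fold lower. Of the 26 measured members, 22 were called (84.6%, against 57.5% of all probes and 57.6% of all genes): 16 were lower and 6 were higher (limma on 3 replicates, Benjamini-Hochberg adjusted p under 0.05 over all 19449 probes). In percent, 61.5% of the members were lower, against 25.5% of all probes, and 23.1% were higher, against 32% of all probes. Past 2-fold, 11 members (42.3%) were lower and 1 was higher, against 13.8% and 12.9% of all probes. Past 4-fold, 6 members (23.1%) were lower, against 5.34% of all probes, and 1 was higher, against 1.75%. Past 8-fold, 5 members (19.2%) were lower, against 1.85% of all probes, and 1 was higher, against 0.0668%. The median of the members was -0.76 and that of all probes 0.11. The lower and upper quartiles were -1.94 and 0.38 for the members and -0.45 and 0.61 for all probes. Without replicate 2 the number of members called higher was 2 in place of 6, and the share of all probes called higher was 23.8% in place of 32%.

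**Figure D1:**
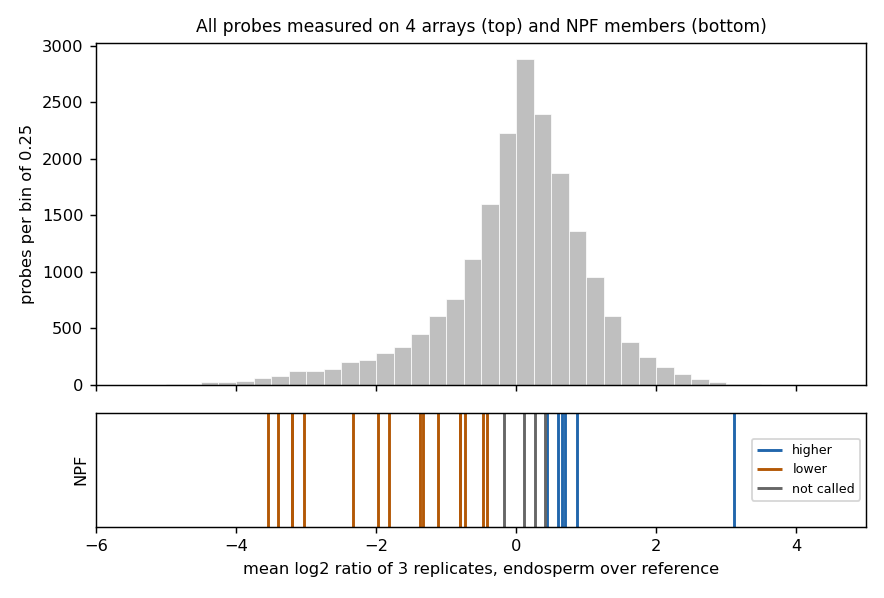
Histogram of the mean log2 ratio over 3 replicates for the 19449 probes measured on all 4 arrays, in bins of 0.25 (top), and a line for each of the 26 measured NPF members by call (bottom). The 16 members called lower reach from -0.42 to -3.55, 5 of the 6 called higher lie below 0.90, and NPF4.2 stands alone at 3.10.

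The order of the 26 ratios was read here in 3 parts, divided at its widest gaps. NPF4.2 lies 2.24 above the next member, AT1G69860, and their arrays do not overlap. The middle runs from AT1G69860 (0.86) to NPF6.4 (-2.32) with smaller gaps. Its widest, 0.435, lies between AT3G53960 and AT1G72140, whose arrays do not overlap. Those of NPF4.4 and NPF4.5, 0.30 apart, do not overlap either. The 5 lowest members form the last part: their means lie between -3.03 and -3.55, each overlaps its neighbour in the order on the arrays, and a gap of 0.70 divides them from NPF6.4. Over the whole order, 21 of the 25 pairs of neighbours overlap in their range over the arrays. Those ranges alone do not rank the members of such a pair, and they leave out that members share arrays. AT5G13400 and AT1G72140 overlap in this way, yet AT5G13400 was the lower on all 4 arrays. The spread between replicates was like that of other probes, with a median SD of 0.24 for the members and 0.23 for all probes. It ran from 0.0068 for AT1G72140 to 1.24 for GTR2. All 4 arrays had 1 sign for 22 of the 26 members and for 71.7% of all probes.

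**Figure D2:**
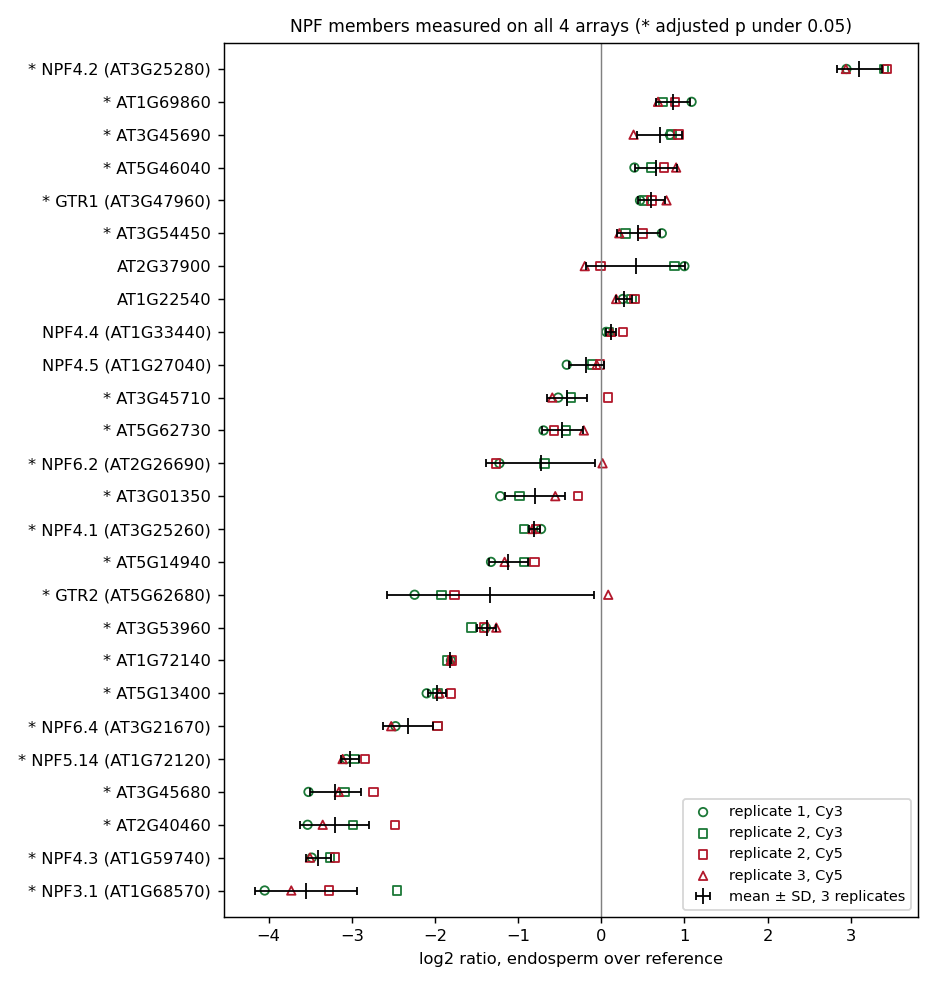
Log2 ratio of endosperm over reference on each array (symbols for replicates, colours for the dye on endosperm) with the mean ± SD of 3 replicates, for the 26 measured NPF members in order of their mean. NPF4.2 lies near 3 on all arrays, 5 members lie near or below -3, and replicate 3 of GTR2 and of NPF6.2 lies near 0, apart from the other arrays of the same member.

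The glucosinolate importers GTR1 (NPF2.10) and GTR2 (NPF2.11), which together load glucosinolates into seeds, lay on opposite sides of the reference. GTR1 was at 0.47 in replicate 1, 0.51 and 0.60 on the Cy3 and Cy5 arrays of replicate 2, and 0.78 in replicate 3. All 4 arrays were above 0, with a mean of 0.60 ± 0.16 (SD, n = 3), or 1.52-fold higher (limma adjusted p = 0.00915). The call did not survive the loss of replicate 2 (adjusted p = 0.0522) or of replicate 3 (adjusted p = 0.051). GTR2 was at -2.25, -1.92, -1.77 and 0.08 in the same order. Replicates 1 and 2 were far below the reference and replicate 3 was level with it. The mean of -1.33 ± 1.24, or 2.52-fold lower (adjusted p = 0.0425), therefore stands for no single sample. Without replicate 3 it was -2.04 (adjusted p = 1e-04), without replicate 1 it was -0.88 (adjusted p = 0.149) and without replicate 2 -1.08 (adjusted p = 0.137). Within replicates GTR1 exceeded GTR2 by 2.71, 2.40 and 0.70, a mean of 1.94 ± 1.08. The ratio of GTR1 was the higher in 3 of 3 replicates, and an exact sign-flip test of 3 replicates cannot give a p below 0.25.

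Few genes of glucosinolate synthesis had a named probe, 3 of 21 listed. Measured on all 4 arrays was 1 of them, BCAT4, an aminotransferase that starts the elongation of methionine for aliphatic glucosinolates. It was at -5.34, -3.43, -3.36 and -3.95. All arrays were far below the reference, with a mean of -4.23 ± 1.0, or 18.7-fold lower (limma over 10513 genes, adjusted p = 0.000441; 23.7% of genes were lower). UGT74B1, which adds glucose in the same pathway, had 3 values, -0.85 and -0.68 on the Cy3 arrays of replicates 1 and 2 and -0.38 in replicate 3, all below 0. AT2G31790, a further gene of that list, had -0.72, -0.97 and -0.17 (replicate 1, replicate 2 with Cy5 and replicate 3).

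Of the nitrate carriers, both measured members with an NPF6 name in RefSeq were lower in endosperm (25.5% of all probes were lower). NPF6.4, of the same subfamily as the nitrate transporter and sensor NRT1.1, was at -2.47, -1.97, -1.97 and -2.53. Its 4 arrays lay together, with a mean of -2.32 ± 0.31, or 5.01-fold lower (limma adjusted p = 0.000187). NPF6.2, a nitrate carrier of leaf petioles, was at -1.22, -0.68, -1.27 and 0.02. As with GTR2, replicate 3 was level with the reference and the others were below it. The mean of -0.73 ± 0.66 was called narrowly (adjusted p = 0.0496), the call nearest the threshold. Without replicate 3 the mean was -1.10 (adjusted p = 0.00191). It was -0.48 without replicate 1 (adjusted p = 0.162) and -0.60 once replicate 2 was left out (adjusted p = 0.174). The first member past the threshold on the other side, AT1G22540, had an adjusted p of 0.1. A ratio above 0 in replicate 3 with replicates 1 and 2 both below -0.9 was found in 2 of 11 such NPF members (GTR2 and NPF6.2) and in 27 of 2552 such probes of all (1.06%). The same count for replicate 1 gave 0 of 9 members and 22 of 2452 probes (0.897%), and for replicate 2 it gave 0 of 10 members and 1 of 2517 probes. The pattern and the threshold of -0.9 were chosen after these values were seen.

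Few other nitrate and no peptide carriers could be followed. RefSeq gives 11 of the 53 loci a name as a nitrate carrier, NRT1.1, NRT1.5, NRT1.6 and NRT1.7 among them. Of these 11, 1 had a named probe and 0 were measured on all 4 arrays. That probe is for NAXT1 (NPF2.7), which exports nitrate from root cells, and it had 2 values, 0.05 in replicate 2 with Cy5 and 0.01 in replicate 3. The 6 loci named as peptide carriers (PTR1 to PTR6, of which PTR2 counts among the 11 as well) had no named probe (0 of 6). From a wider list of 38 genes of nitrate and ammonium transport, assimilation and signalling, NRT2.5, a high-affinity nitrate carrier, had 3 values. These were 1.26 (replicate 1), 1.14 (replicate 2 with Cy3) and 1.12 (replicate 3). All 3 were above 0 and close together, with a mean of 1.17 (adjusted p = 0.00064 where 1 array of replicate 2 was enough). The 1 gene of that list with 4 values, AT4G24730, carries no carrier name in RefSeq and was at 0.03 ± 0.12 (not called, adjusted p = 0.847). None of 30 listed amino acid and oligopeptide carriers was measured (0 of 30).

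Among carriers of hormones, NPF3.1, which imports gibberellin in the root endodermis, was among the 5 lowest of the 26 measured members, and its arrays overlapped those of NPF4.3. It was at -4.05, -2.46, -3.27 and -3.73. All arrays were far below the reference, and the 2 arrays of replicate 2, at -2.46 with Cy3 and -3.27 with Cy5, differed by 0.82. The mean was -3.55 ± 0.61, or 11.7-fold lower (limma adjusted p = 0.000188), the 140th lowest of all 19449 probes.

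The 5 measured genes with an NPF4 name in RefSeq spanned nearly the whole range of the family, 6.51 log2 units. Of these 5, 1 was higher, 2 were lower and 2 were not called (32% of all probes were higher and 25.5% lower). NPF4.2, which takes up abscisic acid when expressed in yeast, was at 2.95 in replicate 1, 3.40 and 3.43 on the Cy3 and Cy5 arrays of replicate 2, and 2.94 in replicate 3. The 4 arrays lay within 0.49 of each other, and the arrays of replicate 2 within 0.03. The mean was 3.10 ± 0.27, or 8.59-fold higher (adjusted p = 0.000125), rank 12 from the top of the 19449 probes. NPF4.3 was at -3.48, -3.26, -3.20 and -3.50, as far below the reference as NPF4.2 was above it. Its mean was -3.41 ± 0.15, or 10.6-fold lower (adjusted p = 0.000125), the 190th lowest of all probes. NPF4.1, which moves gibberellin and abscisic acid in yeast, was at -0.72, -0.93, -0.79 and -0.83. All arrays were below 0, with a mean of -0.80 ± 0.070, or 1.74-fold lower (adjusted p = 0.00224). The remaining genes with an NPF4 name were close to the reference. NPF4.4 was at 0.12 ± 0.059 (not called, limma adjusted p = 0.42). NPF4.5, an abscisic acid importer in yeast, was at -0.18 ± 0.21 (not called, adjusted p = 0.299).

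NPF5.14 was at -3.07, -2.97, -2.84 and -3.11. The arrays lay together far below 0, with a mean of -3.03 ± 0.11, or 8.15-fold lower (limma adjusted p = 0.000125).

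The other 15 measured members have no NPF name in the RefSeq table and are given by locus. Of these, 9 were lower, 4 were higher and 2 were not called (25.5% of all probes were lower and 32% higher). The subfamilies of these 15 were not assigned here, so the NPF4 and NPF6 counts above leave them out. AT2G40460 was at -3.53, -2.99, -2.48 and -3.35, with a mean of -3.21 ± 0.42, or 9.22-fold lower (limma adjusted p = 0.000144). AT3G45680 was at -3.52, -3.09, -2.74 and -3.16, with a mean of -3.20 ± 0.31, or 9.17-fold lower (adjusted p = 0.000125). Both were far below the reference on all arrays and could not be ranked against each other.

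AT5G13400 was at -2.10, -1.97, -1.81 and -1.95, a mean of -1.98 ± 0.11, or 3.94-fold lower (adjusted p = 0.000157). AT1G72140 was at -1.81, -1.85, -1.79 and -1.81, a mean of -1.81 ± 0.0068, or 3.52-fold lower (adjusted p = 0.000169). The 4 arrays of each gene lay together, those of AT1G72140 within 0.056. AT3G53960 was at -1.39, -1.56, -1.41 and -1.26, a mean of -1.38 ± 0.11 (2.60-fold lower, adjusted p = 0.000387). AT5G14940 was at -1.33, -0.92, -0.80 and -1.16, a mean of -1.12 ± 0.24 (2.17-fold lower, adjusted p = 0.00125). Neither reached 0 on any array.

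Smaller ratios completed the lower group. AT3G01350 was at -0.80 ± 0.36 (adjusted p = 0.00889), with -1.22 and -0.98 on the Cy3 arrays and -0.28 and -0.55 on the Cy5 arrays, and its call was lost on the Cy5 arrays alone (-0.42, adjusted p = 0.0571). AT5G62730 was at -0.47 ± 0.24 (adjusted p = 0.033), with its call lost when replicate 1 was left out (-0.35, adjusted p = 0.0833) or replicate 2 (-0.45, adjusted p = 0.146). AT3G45710 was at -0.42 ± 0.24 (adjusted p = 0.0471) and lost its call without any 1 of the 3 replicates (adjusted p = 0.105, 0.0652 and 0.2).

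The 4 higher loci without a name lay between 0.45 and 0.86, all above 0 on 4 of 4 arrays. AT1G69860 was at 1.09, 0.74, 0.89 and 0.68, a mean of 0.86 ± 0.21, or 1.82-fold higher (limma adjusted p = 0.00285). AT3G45690 was at 0.70 ± 0.27 (adjusted p = 0.00896) and AT5G46040 at 0.66 ± 0.25 (adjusted p = 0.0101), and both calls were lost without replicate 2 (adjusted p = 0.0647 and 0.0571). AT3G54450 was at 0.45 ± 0.26 (adjusted p = 0.0413), and dropping replicate 1 (adjusted p = 0.101), dropping replicate 2 (adjusted p = 0.136) or centring the arrays (adjusted p = 0.0766) ended its call. AT1G22540 (0.27 ± 0.10) and AT2G37900 (0.41 ± 0.60) were not called.

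Of the 22 called members, 11 kept their call under all 13 alternatives: NPF4.2, which was higher, and 10 that were lower. The 10 are NPF3.1, NPF4.3, NPF5.14, NPF6.4, AT1G72140, AT2G40460, AT3G45680, AT3G53960, AT5G13400 and AT5G14940. The null at 1.5-fold is itself 1 of the 13 alternatives, so the 10 had to be called lower there. Of the 26 members, limma called no others lower at that null, where 13% of all probes were lower and 12.2% higher. The share of all probes that kept a call under all 13 alternatives is not given here, so the 11 cannot be set against it.

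Some members that lie near each other in the genome had opposite ratios. With at most 5 protein-coding genes between members, 27 of the 53 loci fell into 9 groups of neighbours by RefSeq gene order, and 13 of the 27 were measured. NPF4.2 and NPF4.1, with 2 genes between them, differed by 3.91 ± 0.32 within replicates (3.67 to 4.28), or 15.0-fold. In the largest group, from AT3G45650 (NAXT1) to AT3G45720, AT3G45680 and its direct neighbour AT3G45690 differed by 3.90 ± 0.41 (3.54 to 4.35), or 14.9-fold. AT3G45690 was called higher and AT3G45680 lower. AT3G45710 lay between them, 2.78 ± 0.22 above AT3G45680 and 1.12 ± 0.20 below AT3G45690.

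NPF5.14 (AT1G72120) and AT1G72140, with 2 unmeasured members between them, were both lower but differed by 1.21 ± 0.11 (1.08 to 1.30), or 2.32-fold. GTR2 and AT5G62730, with 4 genes between them, differed by 0.87 ± 1.01 with signs both ways over the replicates (-0.29 to 1.55), so that difference did not exceed its spread. The other 5 differences ran 1 way in 3 of 3 replicates. The smallest p that an exact sign-flip test allows with 3 replicates is 0.25. Each pair was ordered by these same means, and the differences among AT3G45680, AT3G45690 and AT3G45710 share loci. How often genes outside the family differ 1 way in all replicates is not given here. How far a probe takes up the transcript of a close relative was not measured.

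**Figure D3:**
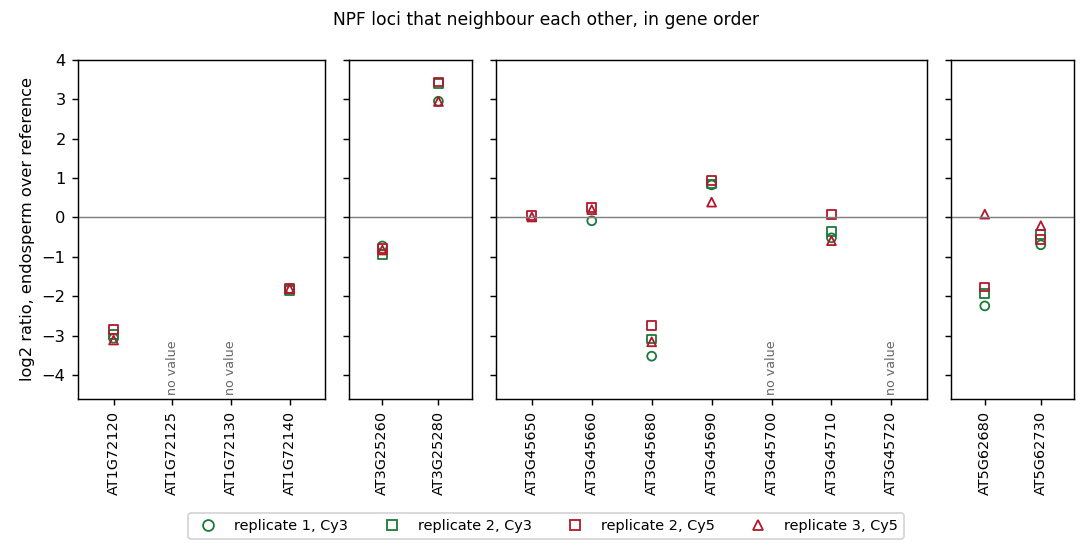
Log2 ratio of endosperm over reference on each array for the 4 groups of neighbouring NPF loci with at least 2 measured members, in gene order. NPF4.1 (AT3G25260) and NPF4.2 (AT3G25280) lie on opposite sides of 0, as do AT3G45680 and AT3G45690.

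Some ratios differed between the arrays with Cy3 and those with Cy5 on endosperm. Of the 26 members, 21 had the higher ratio on the Cy5 array of replicate 2, against 46.9% of all probes, with a median difference of 0.12 for the members and -0.02 for all probes. Among all probes called lower past 2-fold, 55.8% were higher on that Cy5 array, with a median difference of 0.04. Of the 11 members called lower past 2-fold, 9 were higher there. AT2G37900 differed most by dye: with Cy3 on endosperm it read 1.0 and 0.88, with Cy5 it read -0.01 and -0.20, and these do not overlap. Its dye term over the 4 arrays had an unadjusted p of 0.00125 and an adjusted p of 0.129 (limma, with the arrays of replicate 2 blocked at r = 0.33). No member passed for dye after adjustment (0 of 26), 2 had an unadjusted p under 0.05 (AT2G37900 and AT3G01350), and over all probes 0.072% passed after adjustment and 11.5% before it. On the Cy3 arrays alone AT2G37900 was at 0.94 (adjusted p = 0.00356). The part of the dye in these ratios was not tested beyond this.

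**Figure D4:**
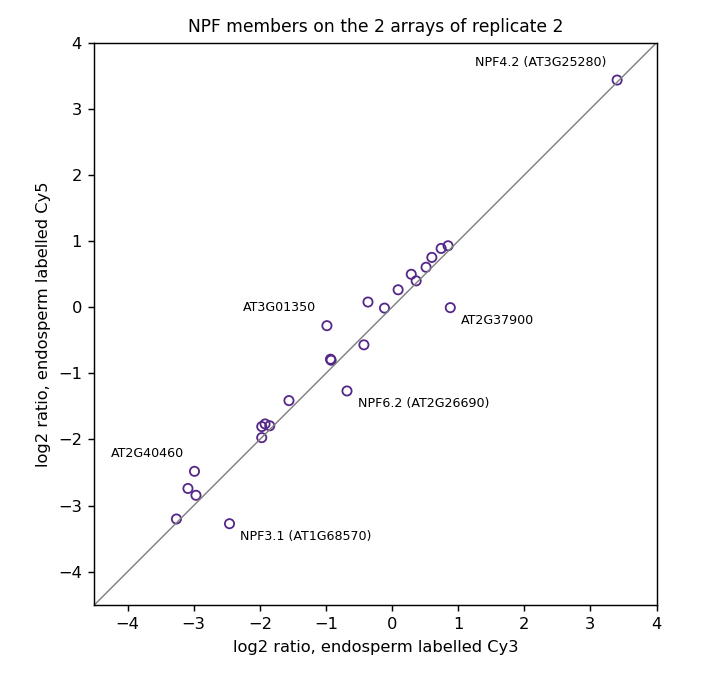
Log2 ratio of endosperm over reference for the 26 measured NPF members on the 2 arrays of replicate 2, with endosperm labelled Cy3 (x axis) and Cy5 (y axis), and the line of equal values. In all, 21 members lie above the line, NPF4.2 by 0.03, and AT2G37900 and NPF3.1 lie 0.89 and 0.82 below it.

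The remaining members gave few or no values. AT3G45660 was at -0.09, 0.24 and 0.20 on 3 arrays, AT2G38100 at 0.21, 0.58 and 0.32, and AT1G22550 at -0.58, -0.23 and -0.23. With these 3 tested on the arrays they have, 0 passed (adjusted p = 0.468, 0.0574 and 0.0735), while 2 of them had an unadjusted p under 0.05. The probes of AT5G11570, AT3G45720, AT3G45700 and AT1G22570 were empty on all 4 arrays (4 of 34 named probes, against 7.18% of all named probes). The filter that left cells empty is not given, so an empty cell cannot be read as absence of the transcript. The 19 loci without a named probe were not analysed here.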

How the data were processed

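RNA of 3 laser-cut endosperm samples and 1 reference was amplified in 2 rounds and labelled with Cy dyes, per the labels' protocols. The authors' deposited table holds 1 log ratio per probe and array, centred near a mean of 0 and assumed here to be log2. With another base the folds would differ. Log base, numerator, scanner, background correction, normalization and filter: not given in the sources used here. Spot intensities were not used here, so dim spots could not be filtered. Precision is limited by the number of arrays.

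The gene table names 14539 of 26912 probes, each with 1 gene, and 14538 matched RefSeq (TAIR10.1), used for names and gene order. No coordinates or sequences are printed: the build of the array is not given, and no sequence table was used. The 2 arrays of replicate 2 were averaged (n = 3), and limma 3.58.1 (R 4.3.3) compared the mean with 0 (eBayes, 2 residual degrees of freedom per probe, Benjamini-Hochberg). The test leaves out the spread of the reference. The test was checked for its sign and false calls in simulated data with few changed probes, independent replicates and a dye offset that cancels. Far more probes were called in the arrays themselves, so that check does not measure false calls there. For the gene lists, probes of 1 gene were averaged. duplicateCorrelation gave no value for 1 pair of arrays, so the block correlation was estimated by moments. Alternatives were each replicate left out, centring, scaling, dye as covariate, each dye alone, 4 arrays as samples or blocked, a fold change of 1.5, another variance prior and a looser filter on empty cells. The gap of at most 5 genes that defines neighbours was chosen after the values were seen. The members and lists were chosen with earlier results of these data known. All measured members are named. Members called past 2-fold are given array by array, and others by mean or where a comparison needs them. The list genes shown are those measured, with partly measured ones beside them. AT4G24730 was entered among the nitrate genes without a name in RefSeq to back it.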

Additional observations from a re-analysis of the deposited data

How the results depend on the processing

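Over 13 alternatives, the 26 members gave 338 comparisons with the reported call: 294 kept it, 39 lost it, 5 gained one and 0 called members changed sign. The 294 include comparisons in which a member that was not called stayed so. All 39 losses fell on the 22 called members. Of the 11 members that lost a call somewhere, 2 did so only against a fold change of 1.5. Without 1 replicate, the number higher ran from 2 to 6 and the number lower from 12 to 15, against 6 and 16. Over all probes the share higher ran from 23.8% to 31.7% and the share lower from 19.9% to 25%, against 32% and 25.5%. Against a fold change of 1.5, 1 member was higher and 10 were lower, beside 12.2% and 13% of all probes. The median of the members lay between -0.89 and -0.47 under all alternatives. With a value for each replicate in place of all 4 arrays, 1 nitrate list gene was higher in place of 0 and 3 glucosinolate genes were lower in place of 1, since more genes were tested. The direction set by endosperm markers (median 1.85) was the same from the median of 4 markers of seed coat and silique wall with the sign turned, at 0.56. Among those 4, DFR (0.15 before turning) went the other way, and neither DFR nor BAN (-0.39) was called. GTR2 also missed the threshold on the Cy5 arrays alone (-0.84, adjusted p = 0.175) and with a trended, robust variance prior (adjusted p = 0.0505). NPF6.2 missed it with the looser filter (adjusted p = 0.0521). AT1G22540 passed only with the 4 arrays as samples or blocked (adjusted p = 0.0292 and 0.0478), and AT2G37900 without replicate 3 (adjusted p = 0.0218), with a term for dye (adjusted p = 0.0211) and on Cy3 arrays. The causes were not tested. No paired analysis was possible because the endosperm samples form 1 group. Dixon's test over the 4 arrays, 2 of which share RNA, called no array of any member an outlier. Replicate 3 of GTR2 was not called either, although it was level with the reference and the other arrays lay far below it. With so few arrays the test cannot show that no array stood apart.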
